A study of Aspergillus nidulans with 12 samples.

Results

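The tubulin and actin genes of the filamentous fungus Aspergillus nidulans are described here: the α-tubulin genes tubA (AN0316) and tubB (AN7570), the β-tubulin genes benA (AN1182) and tubC (AN6838), the γ-tubulin gene mipA (AN0676) and the actin gene actA (AN6542). They were taken by their gene IDs and not by any measured value, although earlier results of these data were known when they were chosen. All 6 were listed in both deposited tables, among 7729 genes in each. RNA-Seq had been performed on mycelium grown in liquid minimal medium, with 3 libraries for each of 4 strains. The mutant kaeA19 and its kaeA+ control wt4 were the strains behind the first table, and the mutant kaeA25 and its kaeA+ control wt5 those behind the second. The product of kaeA belongs to KEOPS, a conserved complex that modifies tRNA. All 4 strains carry proA6. According to the labels, kaeA19 and wt4 also carry pabaA9, with the biA allele written as biA2, biA3 and biA4 in the kaeA19 libraries and as biA1 in those of wt4, whereas the study's methods give pabaA12 and biA1 for kaeA19. The labels give kaeA25 and wt5 the further markers adF9, yA2 and phenA2. The study describes both mutants as growing more slowly than the wild type.

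α- and β-tubulin join into dimers, and these dimers polymerize into microtubules, the tracks of long-distance transport and nuclear migration in hyphae and the fibres of the mitotic spindle. γ-tubulin starts new microtubules at the spindle pole bodies. It was discovered in A. nidulans, where mipA was found as a suppressor of a benA mutation. benA itself is known as the target of the fungicide benomyl. tubC is known as the β-tubulin gene used mainly during conidiation, and tubB as an α-tubulin gene needed for sexual development. Actin filaments carry vesicles to the growing hyphal tip and form the ring at which a septum is laid down.

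The only measure of level used was the authors' mean. It was taken as the average of the normalized fragment counts of the 6 libraries of a table, 3 of the mutant and 3 of its control. It therefore gives no value for a single strain or library. No error or number of replicates can be attached to it, no test was run on it, and these tables do not give the depth per library. The study has an alignment summary by library number, which was not used here. No difference between a mutant and its control is reported. The means of all genes summed to 22310307 normalized fragments in the kaeA19/wt4 table and to 21992765 in the kaeA25/wt5 table.

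Actin and the major tubulins were among the most abundant transcripts of the mycelium, and γ-tubulin was not. actA had a mean of 62071 normalized fragments in the kaeA19/wt4 table and 48678 in the kaeA25/wt5 table. These values were 61.9 and 51.3 times the median of the genes with a mean above 0. tubA followed with 35909 in the kaeA19/wt4 table and 27478 in the kaeA25/wt5 table, and benA with 30931 and 25345 in the same order of tables. The other gene of each tubulin family had a lower level than its partner. tubB stood at 13684 in the kaeA19/wt4 table and 9563 in the kaeA25/wt5 table. tubC stood at 10417 in the kaeA19/wt4 table and 6127 in the kaeA25/wt5 table. mipA was near the level of an ordinary gene, with 1639.5 in the kaeA19/wt4 table and 1605 in the kaeA25/wt5 table, 1.63 and 1.69 times the median gene.

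**Figure D1:**
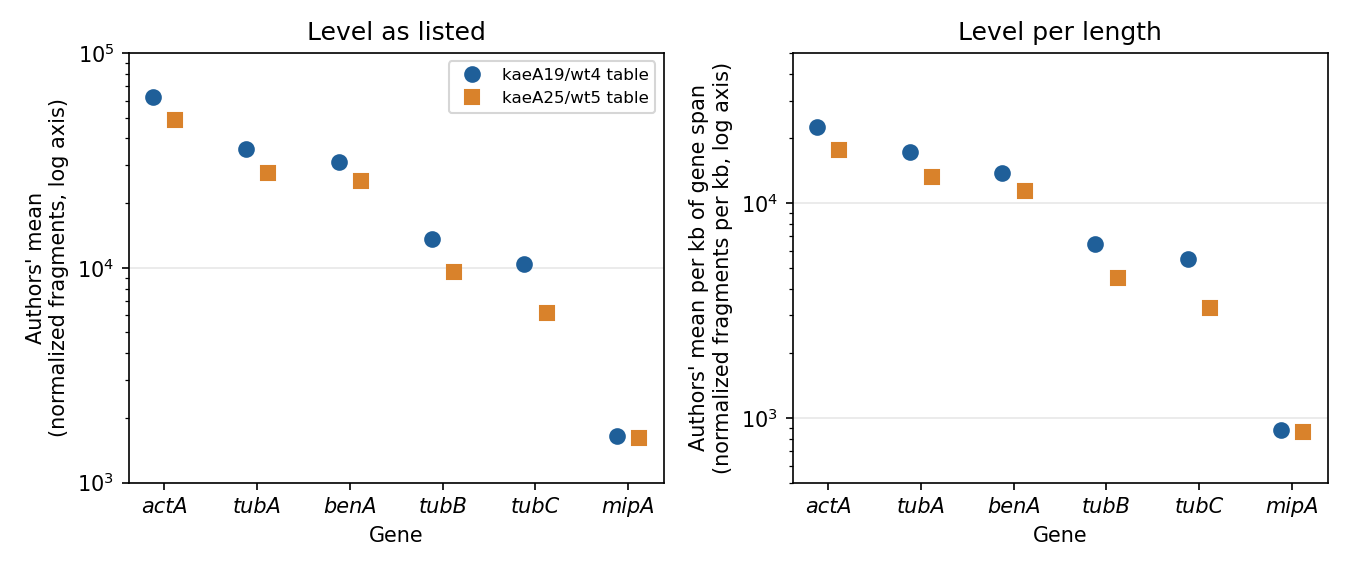
Level of the 6 genes in the kaeA19/wt4 table (circles) and the kaeA25/wt5 table (squares), as the authors' mean of normalized fragments (left) and divided by the length of the gene in kilobases (right), both on log axes. Each point is a mean over 6 libraries with no error available; actA is the highest and mipA the lowest in both tables, and the order of the genes is the same in both panels.

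To compare genes with each other, each mean was divided by the length of the gene from its first to its last annotated base, introns included (gene span), in the RefSeq annotation. Spans were 2742 bases for actA, 2228 for benA, 2131 for tubB, 2069 for tubA, 1893 for tubC and 1873 for mipA. On this scale actA had 22637 normalized fragments per kb in the kaeA19/wt4 table and 17753 in the kaeA25/wt5 table. tubA had 17356 and 13281 per kb, and benA 13883 and 11376 per kb, in the same order of tables. tubB had 6422 per kb in the kaeA19/wt4 table and 4487 in the kaeA25/wt5 table, and tubC had 5503 and 3236. mipA had 875 per kb in the kaeA19/wt4 table and 857 in the kaeA25/wt5 table. The order actA, tubA, benA, tubB, tubC and mipA was the same in both tables, with and without the length correction. The smallest steps between neighbours were those of tubB over tubC in the kaeA19/wt4 table, 1.17 times per kb, and of tubA over benA in the kaeA25/wt5 table, also 1.17 times. Whether neighbours with such small steps differ cannot be judged, because the spread between libraries was not used. The largest step lay between tubC and mipA, 6.29 times per kb in the kaeA19/wt4 table and 3.78 times in the kaeA25/wt5 table.

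actA was the 25th most abundant of all listed genes in the kaeA19/wt4 table and the 40th in the kaeA25/wt5 table. tubA held rank 49 in the kaeA19/wt4 table and 80 in the kaeA25/wt5 table, and benA ranks 76 and 96. These 3 genes lay within the top 5% of the genes with a mean above 0 in both tables. tubB, at rank 263 in the kaeA19/wt4 table, lay within the top 5% there. It lay just outside in the kaeA25/wt5 table, at rank 403 (94.7th percentile). tubC was just outside in the kaeA19/wt4 table (rank 384, 94.9th percentile, or 95.04th when genes listed at 0 were counted too) and further down in the kaeA25/wt5 table (rank 699, 90.8th percentile). mipA was at the 63.9th percentile in the kaeA19/wt4 table and at the 65.0th in the kaeA25/wt5 table. The 6 genes together made up 0.693% of all normalized fragments in the kaeA19/wt4 table and 0.540% in the kaeA25/wt5 table. Of this, actA alone contributed 0.278% in the kaeA19/wt4 table and 0.221% in the kaeA25/wt5 table.

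**Figure D2:**
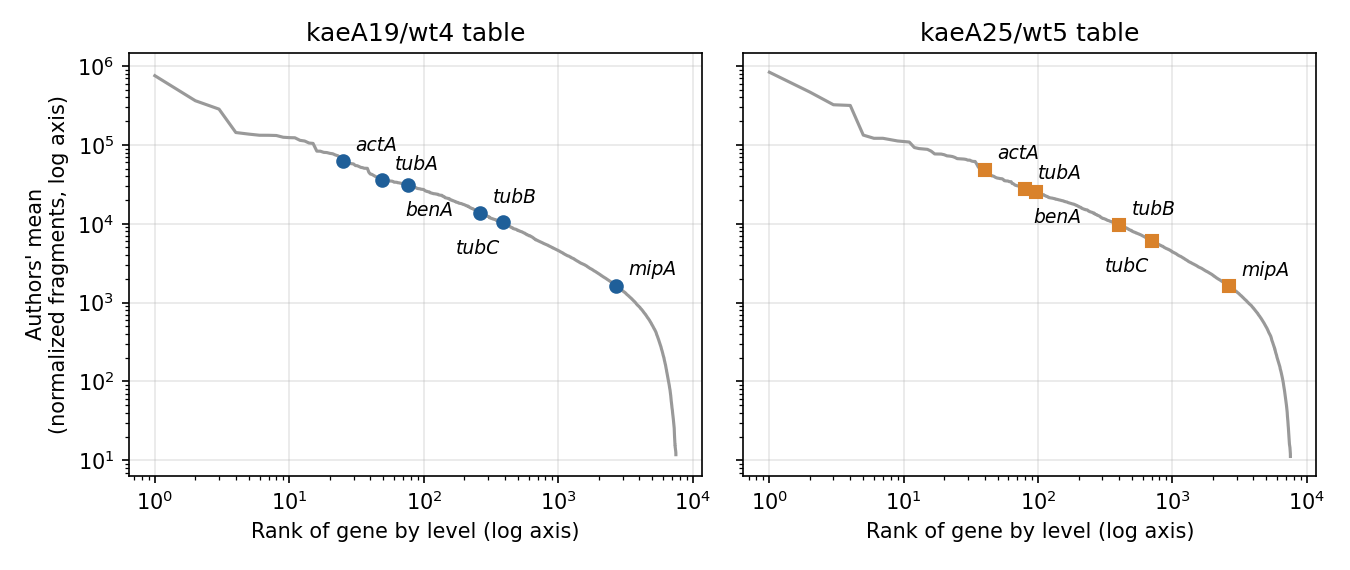
Authors' mean of normalized fragments against rank, both on log axes, for all genes with a mean above 0 (grey line) in the kaeA19/wt4 table (left) and the kaeA25/wt5 table (right), with the 6 genes marked. actA, tubA and benA lie at ranks 25, 49 and 76 (left) and 40, 80 and 96 (right), tubB and tubC at ranks 263 and 384 (left) and 403 and 699 (right), and mipA at ranks 2694 and 2642.

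Both families with paired genes had a major and a minor member. Per kb, tubA was 2.70 times tubB in the kaeA19/wt4 table and 2.96 times in the kaeA25/wt5 table, so that tubB made up 27.0% and 25.3% of the α-tubulin level. benA was 2.52 times tubC in the kaeA19/wt4 table and 3.51 times in the kaeA25/wt5 table. tubC accordingly made up 28.4% of the β-tubulin level in the kaeA19/wt4 table and 22.1% in the kaeA25/wt5 table. These ratios are taken within a table and do not depend on how it was scaled. Between the tables, the ratio of benA to tubC differed by -0.48 on the log2 scale (kaeA19/wt4 over kaeA25/wt5) and that of tubA to tubB by -0.13. The paired genes encode closely related proteins, and the sources used here do not give how reads matching both were assigned. The split within each family is therefore uncertain.

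α- and β-tubulin, which are needed in equal amounts as protein, had similar summed levels. The sum of tubA and tubB per kb was 1.23 times that of benA and tubC in the kaeA19/wt4 table and 1.22 times in the kaeA25/wt5 table, a difference between the tables of 0.01 on the log2 scale. actA was 1.17 times the summed β-tubulin level per kb in the kaeA19/wt4 table and 1.21 times in the kaeA25/wt5 table. γ-tubulin, which acts at the sites where microtubules start, was far below. The α- and β-tubulin genes together had 49.3 times the level of mipA per kb in the kaeA19/wt4 table and 37.8 times in the kaeA25/wt5 table.

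**Figure D3:**
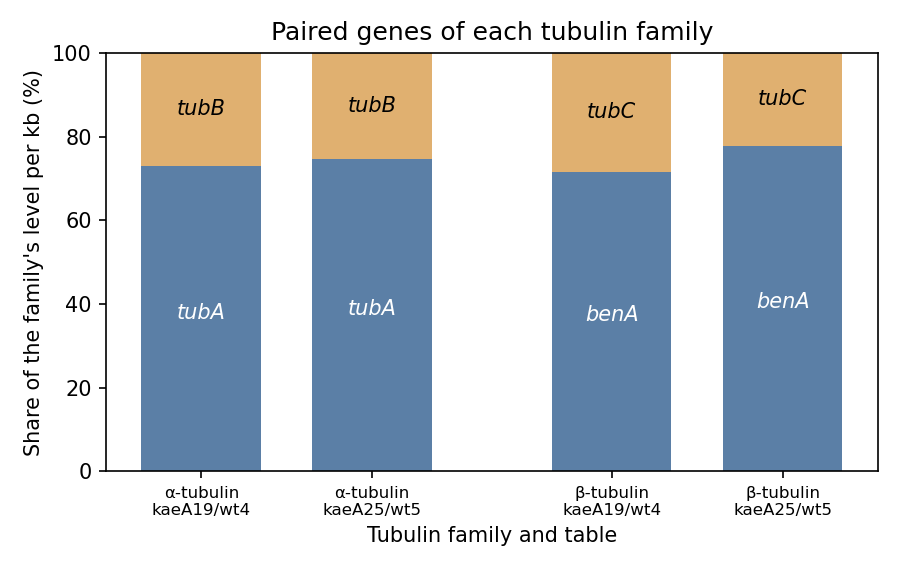
Share of each gene in the level of its tubulin family (%, authors' mean per kb of gene span) in the kaeA19/wt4 and kaeA25/wt5 tables. The bars show tubB at 27.0% and 25.3% of α-tubulin, and tubC at 28.4% and 22.1% of β-tubulin.

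All 6 genes took a larger share of the fragments in the kaeA19/wt4 table than in the kaeA25/wt5 table. So did 53.1% of the 7283 genes with a mean above 0 in both tables. For mipA the ratio was only 1.01 times. The 2 tables differ in strain background and in the kaeA allele, and they were normalized separately. The background, the allele and the conditions of culture and sequencing cannot be told apart as sources of a difference between them, and in bulk mycelium fewer cells with a transcript cannot be told apart from less of it per cell. Each mean was divided by the sum of all means of its table before the ratio was taken. tubC had the largest ratio, 1.68 times (log2 0.75), with 0.0467% of all fragments in the kaeA19/wt4 table and 0.0279% in the kaeA25/wt5 table. Its ratio was at the 92.7th percentile of the 7283 genes with a mean above 0 in both tables. tubB followed with 1.41 times (log2 0.50, 88.0th percentile). The values for tubA were 1.29 times (log2 0.37, 83.2nd percentile), for actA 1.26 times (log2 0.33, 81.5th percentile) and for benA 1.20 times (log2 0.27, 77.2nd percentile).

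The median log2 ratio of the 6 genes was 0.35, against 0.02 for all 7283 genes. The middle 90% of all genes ran from -0.87 to 0.96, and all 6 genes lay within it. mipA had a log2 ratio of 0.01 (48.3rd percentile), which fell to -0.01 when the median gene was set to 0. It was the only one of the 6 with a ratio below the median gene. Among the 897 genes with a mean over both tables of at least 5000, a limit chosen after the data were seen, the median was -0.01 and tubC lay at the 94.9th percentile. These differences were not tested.

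Other genes of the cytoskeleton were taken from a list of 38 symbols, of which the RefSeq gene table names 18. Found were 3 of 6 microtubule motor genes, 5 of 8 for dynein, dynactin and nuclear migration, and 1 of 8 for other microtubule proteins. So were 4 of 7 genes for other actin proteins, 5 of 5 septin genes and 0 of 4 myosin and formin genes. All 18 were listed with a mean above 0 in both tables, and their median per kb was 2186 normalized fragments in the kaeA19/wt4 table and 2364 in the kaeA25/wt5 table. Each of the 18 had a lower level per kb than tubA and benA in both tables. The profilin gene pfy1 and the septin genes aspA, aspB, aspC and aspD were above tubB and tubC in both. Among the microtubule motors, the kinesin genes, kipB was the highest with 1029 per kb in the kaeA19/wt4 table and 1026 in the kaeA25/wt5 table. The kinesin gene uncA, whose product moves vesicles, was the lowest of the 3 motor genes with 521 and 500.3 per kb. Among the nuclear migration genes, nudC had 4389 per kb in the kaeA19/wt4 table and 4407 in the kaeA25/wt5 table, and nudI, for a dynein intermediate chain, had 662 and 644. The microtubule-associated protein gene alpA had 1097 per kb in the kaeA19/wt4 table and 1192 in the kaeA25/wt5 table.

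The profilin gene pfy1, whose product binds actin monomers, was the highest of the genes for other actin proteins. Its level was 10275 per kb in the kaeA19/wt4 table and 9816 in the kaeA25/wt5 table. The lowest was arp6, for an actin-related protein of chromatin, with 353 per kb in the kaeA19/wt4 table and 380 in the kaeA25/wt5 table. Septins form filaments of their own at septa and branch points. The septin gene aspA stood at 10157 per kb in the kaeA19/wt4 table and 6668 in the kaeA25/wt5 table, and aspE at 1250.3 and 1019.9 per kb.

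Between the tables, the septin genes lay in the same range as actin and the tubulins other than mipA. The 3 microtubule motor genes and the 4 genes for other actin proteins that were found did not. No myosin or formin gene was found, so these classes are covered only in part. The log2 ratio of the kaeA19/wt4 table over the kaeA25/wt5 table was above 0 for 53.1% of all 7283 genes and for 5 of 5 septin genes, from 0.27 for aspE to 0.61 for aspC, with a median of 0.48. The 5 members other than mipA ran from 0.27 to 0.75. The other 13 cytoskeleton genes ran from -0.17 for the fimbrin gene sac6, whose product bundles actin filaments, to 0.05 for pfy1, with a median of -0.03 and 5 of 13 above 0, against the 53.1% over all genes. Thus mipA, at 0.01, lay within the range of these 13 genes. The septins were set apart from the other actin proteins only after the tables had been opened. These are descriptions of pooled means, and no difference between the classes was tested.

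**Figure D4:**
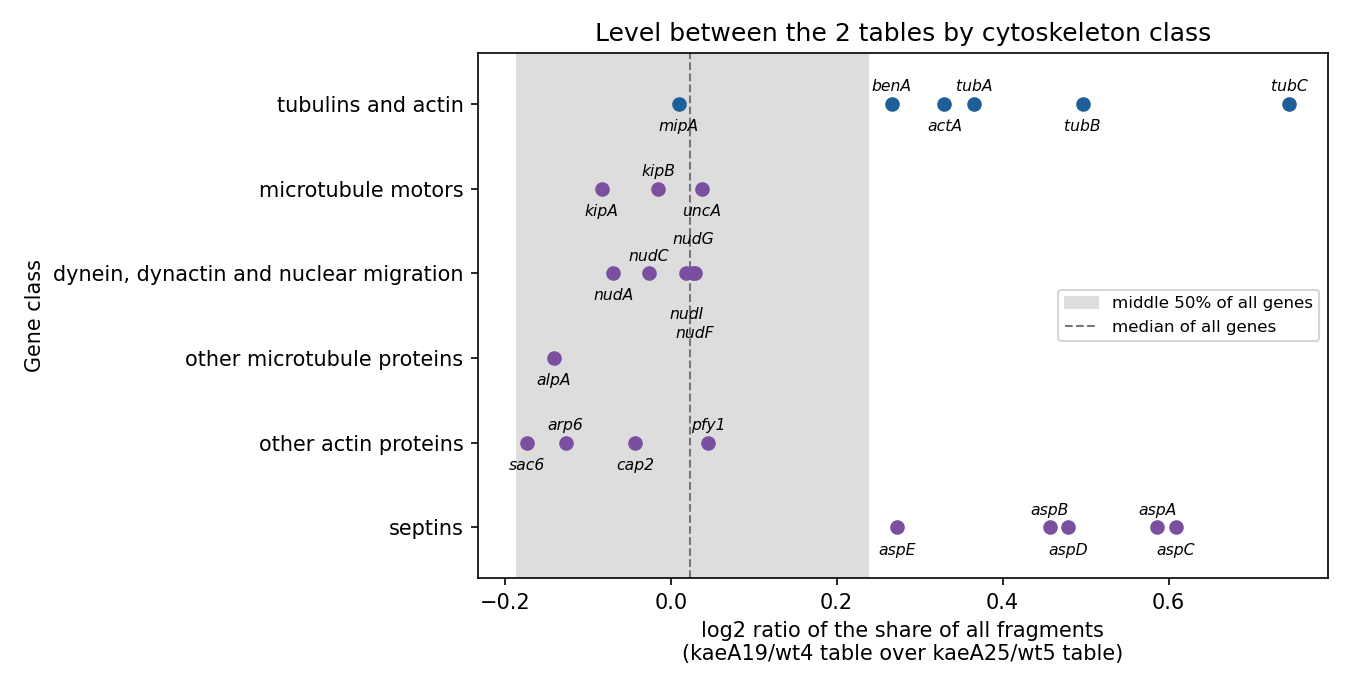
log2 ratio of each gene's share of all fragments, kaeA19/wt4 table over kaeA25/wt5 table, for the tubulins and actin and for 18 other cytoskeleton genes by class (each point is 1 gene); the grey band holds the middle 50% of all genes and the dashed line is their median of 0.02. tubC, tubB, tubA, actA and benA and the 5 septin genes lie to the right of the band, and mipA and the other 13 genes lie within it.

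The labelled tissue was compared with marker genes. Of the hyphal wall synthesis genes, AN2523, a chitin synthase gene with the RefSeq symbol chsG, had a mean of 9861 in the kaeA19/wt4 table and 10599 in the kaeA25/wt5 table. AN7032, a chitin synthase gene with the RefSeq symbol chsB, had 2021 and 1874, and AN3729 had 25602 and 26115, in the same order of tables. The marker list had named AN2523 chsB, so which of these genes the symbol belongs to is uncertain. The wall synthesis markers chsC and gelA were not found by symbol in the RefSeq annotation. Of the conidiation genes, abaA, a developmental regulator, had only 57.3 in the kaeA19/wt4 table and 51.8 in the kaeA25/wt5 table. The regulator gene wetA had 25.9 in the kaeA19/wt4 table and 83.9 in the kaeA25/wt5 table. yA, for the laccase of the green conidial pigment, had 214 and 221. The second value comes from strains that carry the allele yA2 of this gene according to the labels. brlA, rodA and dewA were in the RefSeq annotation but were not among the genes listed, so no level can be given for them. Of the markers of sexual fruiting, nsdD (AN3152), for a regulator needed for fruiting, had 2691 in the kaeA19/wt4 table and 2932 in the kaeA25/wt5 table, a log2 ratio of -0.14 after division by the sums of the tables. veA (AN1052), for a regulator that favours sexual over asexual development, had 5116 in the kaeA19/wt4 table and 3403 in the kaeA25/wt5 table, a log2 ratio of 0.57. The marker veA thus lay in the range of tubB (0.50) and the septins, and nsdD on the other side of 0. Levels of tubC, the gene known for its use in conidiation, were high beside low levels of these 3 conidiation genes in both tables. How reads matching both tubC and benA were assigned is not known, so the level of tubC is uncertain. tubC was lower in the kaeA25/wt5 table, and the 3 conidiation genes did not share 1 direction. There abaA was also lower (51.8 against 57.3), wetA was higher (83.9 against 25.9) and yA differed little (221 against 214). The means of abaA and wetA lay below 100 in both tables, so their differences rest on low values. Any link between these genes and tubC was not tested.

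In the RefSeq annotation, no gene overlapped any of the 6. The genes next to tubC were weakly listed, AN6837 with 86.4 in the kaeA19/wt4 table and 66.1 in the kaeA25/wt5 table, and AN6839 at 0 in the kaeA19/wt4 table and with 14.1 in the kaeA25/wt5 table. Next to actA, AN6541 had 8651 in the kaeA19/wt4 table and 1336 in the kaeA25/wt5 table, a larger difference than that of actA, and AN10830 on the other side had 37.6 and 23.2. Such a neighbour was not particular to actA. AN1181 next to benA had 6754 and 1549, and AN0677 next to mipA had 6970 and 3950, in the same order of tables. The neighbours of tubA and tubB differed less, as a ratio, than tubA and tubB themselves. The sources used here do not say if strand was taken into account in the counting.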

How the data were processed

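Per the labels and the study's methods, ribosomal RNA was depleted from total RNA of 12 mycelium samples and libraries were sequenced in pairs. The authors used TopHat 2 with Bowtie2 for alignment to the FGSC A4 genome from AspGD, retained correctly oriented pairs and counted fragments over annotated genes. The deposited mean is a signal, headed baseMean. From this name and the study's methods, it was taken as fragment counts scaled for library size and averaged over the 6 libraries of a table. The 5 other columns of each table hold the authors' own comparison of mutant and control (log2 fold change, its standard error, a statistic, and p-values before and after adjustment). They were not used, and their values are not reported here. Per the file headers, the authors' columns carry the names that DESeq2 writes, while the study's methods name edgeR.

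Genes were matched to the RefSeq table of assembly ASM1142v1 for names, gene spans and neighbours, with 7332 of 7729 IDs matched. It may not be the build the authors used, so no coordinates are given. Coding lengths and product descriptions were planned for, but gene spans and symbols were used in their place, and sequences were not used here. Levels were expressed as percentiles of the genes with a mean above 0, as shares of the sum of a table, and per kb of gene span. No test was run, since values per library were not used. The members and the gene lists were chosen with earlier results of these data known. The named genes were all members and, from each listed class, the genes with the highest and lowest level per kb in the kaeA19/wt4 table. The class of myosins and formin gave none, since no gene of it was found. The ends of each range and all markers were named too. Other scalings, filters on low values, a pseudocount and no length correction were tried. The calculations were checked on simulated data and were made in Python 3.11.15, with pandas 2.3.3 and numpy 2.4.6, and plotted with matplotlib 3.10.9.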

Additional observations from a re-analysis of the deposited data

How the results depend on the processing

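The means are pooled over 6 libraries, so values without each replicate were not run, and no depth per library was used to judge how precise they are. No paired analysis was possible because the authors' means are pooled over the libraries. With no interval for these values, every change counts as a move, and the main ones are given. Without the length correction, tubA to tubB was 2.62 in the kaeA19/wt4 table and 2.87 in the kaeA25/wt5 table, benA to tubC was 2.97 and 4.14, and α- to β-tubulin 1.199 and 1.177. actA to β-tubulin was then 1.501 and 1.547, and α- plus β-tubulin to mipA 55.5 and 42.7. The correction by annotated exons was not run, since exon lengths were not used here. The median log2 ratio of the 6 genes between the tables was 0.37 with the means as listed, 0.32 with the median gene set to 0, and 0.3476 with a pseudocount of 10, against 0.3477. Of the 6 genes, mipA alone changed sign, with -0.01 when the median gene was set to 0. The percentiles of the single genes moved most for mipA, to 59.2 in the kaeA19/wt4 table and 60.3 in the kaeA25/wt5 table with a limit of 100 on the mean. The numbers of genes in the top 5%, 4 in the kaeA19/wt4 table and 3 in the kaeA25/wt5 table, were 4 and 3 with a limit of 100 on the mean, and 5 and 3 with genes listed at 0 included, where tubC passed in the kaeA19/wt4 table.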
